A study of Homo sapiens with 12 samples.

Results

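Heat shock and chaperone genes were followed in HK-2 cells, an established line from human kidney proximal tubule, after injury by aristolochic acid I (AAI), a nephrotoxic and DNA-damaging plant compound, with and without knockdown of POLR2A, the gene of the largest subunit of RNA polymerase II. The genes were chosen by name, and all 38 of them were found among the 35238 genes of the deposited table. Cells were transfected with 10 nM interfering RNA, either a scrambled control (SCR) or one against POLR2A (siB), and were given at the same time 25 µM AAI or an equal volume of its solvent DMSO, for 24 hours. The 4 groups were SCR DMSO, SCR AAI, siB DMSO and siB AAI, with 3 poly(A) RNA sequencing libraries in each and 12 in all. All groups were transfected cells of a single line, and the labels do not say whether replicates were separate cultures, so p-values measure the spread between these libraries only.

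Heat shock proteins are molecular chaperones that bind unfolded or aggregation-prone proteins and help them fold, assemble or reach the proteasome. Under heat and other protein-damaging stress, the transcription factor HSF1 is released from chaperones, forms trimers and binds heat shock elements, arrays of the letters GAA in alternating orientation, upstream of its target genes. The best known targets are inducible, short and poor in introns, such as HSPA1A and HSPA1B, while cognate members such as HSPA8 and HSP90AB1 are expressed without stress in nearly all cells. In kidney, HSPA1A, HSPB1 and their relatives have long been studied as protective proteins of the tubule after ischemic or toxic injury.

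The 38 genes comprised 15 that are commonly described as heat-inducible and 23 treated here as constitutive. By role they were 2 transcription factors, 5 members of the HSP70 family, 3 of the HSP110 family, 4 small heat shock proteins, 6 genes of HSP90 and its co-chaperones, 3 mitochondrial chaperones, 7 J-domain proteins, 4 BAG family genes and 4 subunits of the TRiC chaperonin. Of the inducible genes, 9 had at most 3 introns in GENCODE release 44 (HSPA1A, HSPA1B, HSPB1, HSPB8, CRYAB, HSPE1, DNAJB1, DNAJB4 and BAG3) and 6 had more (HSPA4L, HSPH1, HSP90AA1, CHORDC1, HSPD1 and DNAJA1). HSPA1A (chr6:31815543-31817946, plus strand, hg38) and HSPA1B (chr6:31827738-31830254, plus strand) each consisted of 1 exon with 0 introns. Their coding sequences of 1923 bases differed at 4 positions and were 99.79% identical, so the split of reads between the pair depends on how the authors' counting treated shared reads and is uncertain.

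The letters of the heat shock element were looked for in the 250 bases before the transcription starts in a RefSeq promoter table (GRCh38.p14), which held 35 of the 38 genes and no entry for HSF1, HSPA14 or CRYAB. A pair of units, GAANNTTC or TTCNNGAA, each its own reverse complement, was present before 11 of 14 inducible genes (78.6%) and 6 of 21 constitutive genes (28.6%), against 14% of all 27305 genes of the table. A run of 3 units, either GAANNTTC followed at once by NNGAA or its reverse complement, TTCNNGAA followed by NNTTC, searched on both strands and always containing such pairs, was present before 3 inducible genes (HSP90AA1, CHORDC1 and HSPD1) and 3 constitutive genes (HSPA8, HSP90AB1 and DNAJB6), against 0.557% of all genes. A gene could have several windows, 50 for the 35 genes, and a match of letters is a description and not a binding site. Windows could also lie within annotated exons of other transcripts or genes. In the windows with a run of 3 units, exons covered 250 bases for HSPA8, 193 for HSPD1, 175 for CHORDC1, 77 for HSP90AB1, 58 for DNAJB6 and 0 for HSP90AA1. The windows of HSPA1A, HSPA1B, HSPB1 and HSP90AA1 are shown 5′ to 3′ because they belong to inducible genes that rose, fell or did not pass with AAI in siB cells, and capitals mark the letters of every pair or run. They lie at chr6:31815293-31815542 (plus strand), chr6:31827488-31827737 (plus strand), chr7:76302423-76302672 (plus strand) and chr14:102087045-102087294 (minus strand).
HSPA1A: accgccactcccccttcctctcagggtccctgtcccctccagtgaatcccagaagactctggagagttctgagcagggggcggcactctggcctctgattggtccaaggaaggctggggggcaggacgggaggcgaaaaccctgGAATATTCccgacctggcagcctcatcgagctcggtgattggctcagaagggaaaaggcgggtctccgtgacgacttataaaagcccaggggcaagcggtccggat
HSPA1B: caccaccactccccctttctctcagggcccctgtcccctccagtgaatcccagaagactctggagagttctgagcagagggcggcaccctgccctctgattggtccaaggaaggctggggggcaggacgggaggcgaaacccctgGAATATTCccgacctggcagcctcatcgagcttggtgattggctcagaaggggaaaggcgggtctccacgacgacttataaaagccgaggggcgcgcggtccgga
HSPB1: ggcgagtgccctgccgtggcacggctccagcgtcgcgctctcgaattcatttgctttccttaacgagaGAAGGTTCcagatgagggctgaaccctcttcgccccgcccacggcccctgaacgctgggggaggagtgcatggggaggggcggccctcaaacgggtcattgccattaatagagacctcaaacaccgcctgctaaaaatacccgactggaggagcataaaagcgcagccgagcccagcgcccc
HSP90AA1: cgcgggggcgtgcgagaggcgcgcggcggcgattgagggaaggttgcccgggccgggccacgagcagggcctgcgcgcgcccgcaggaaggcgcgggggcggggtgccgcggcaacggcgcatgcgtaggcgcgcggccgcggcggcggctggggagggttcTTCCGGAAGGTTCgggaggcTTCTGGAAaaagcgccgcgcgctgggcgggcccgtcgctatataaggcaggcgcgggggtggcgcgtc
The HSPA1A and HSPA1B windows shared the same capital letters and, set against each other with an offset of 1 base, were identical at 235 of 249 bases (94.4%). HSPD1 and HSPE1 lie head to head, the RefSeq start of HSPE1 being 105 bases from the nearer HSPD1 start, and the run of 3 units fell before the other HSPD1 start.

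Levels are given in CPM, reads of a gene per 1e6 reads of its library, recovered from the deposited log10 values, in the order of replicates 1, 2 and 3. Recovered depth was between 15844015 and 42805294 reads, and the limit that a count of 0 allows (3 reads) was at most 0.189 CPM. POLR2A stood at 258 to 306 CPM in SCR DMSO, 138 to 143 in siB DMSO, 673 to 729 in SCR AAI and 210.3 to 266 in siB AAI, so the siB libraries lay below the SCR libraries in both media. Of 11 proximal tubule markers, 4 exceeded 1 CPM in every library and the transporters SLC22A6 and SLC22A8 did not exceed 0.0631 CPM in any, while 4 of 4 epithelial keratins exceeded it throughout. The summed keratin level was 1082 to 1452 CPM in SCR AAI and 976 to 1003 CPM in siB AAI, against 1224 to 2003 and 1320 to 1524 CPM in the matching DMSO groups, which overlapped in SCR cells and not in siB cells. The summed proximal tubule markers were at 610 to 724 CPM in SCR DMSO and 389 to 648 in SCR AAI, which overlapped, and at 720.3 to 742 CPM in siB DMSO and 395 to 542 in siB AAI, which did not. The part of these markers in the results below was not tested. SCR DMSO replicate 2, the deepest library, stood apart from replicates 1 and 3, and the change of each member described by library in SCR cells is given with and without it. A CPM is a share of a library, so fewer cells of a kind and less RNA per cell cannot be told apart, and neither can a change in the total amount of RNA per cell.

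All 38 genes were expressed in every group and entered every test, in which a gene passed at a limma adjusted p under 0.05. Together they took 0.779% to 1.15% of reads. Per kilobase of transcript, the highest means over the 12 libraries were those of HSPB1 (879 CPM per kb), HSP90AB1 (511), HSPA8 (355) and HSP90AA1 (351), and the lowest was that of HSPA4L (3.74). Processed pseudogenes share sequence with some of them, among them HSPA8, HSPD1 and HSPE1 with 17, 18 and 26 annotated pseudogenes by symbol. Because use of strand is not stated, reads cannot be told apart where a gene overlaps another, as HSPD1 does HSPE1 and MOB4, HSP90AA1 does WDR20, DNAJB1 does TECR, BAG1 does SPINK4, BAG2 does RAB23, HSPA14 does CDNF, DNAJC2 does PSMC2 and CRYAB does HSPB2.

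**Figure D1:**
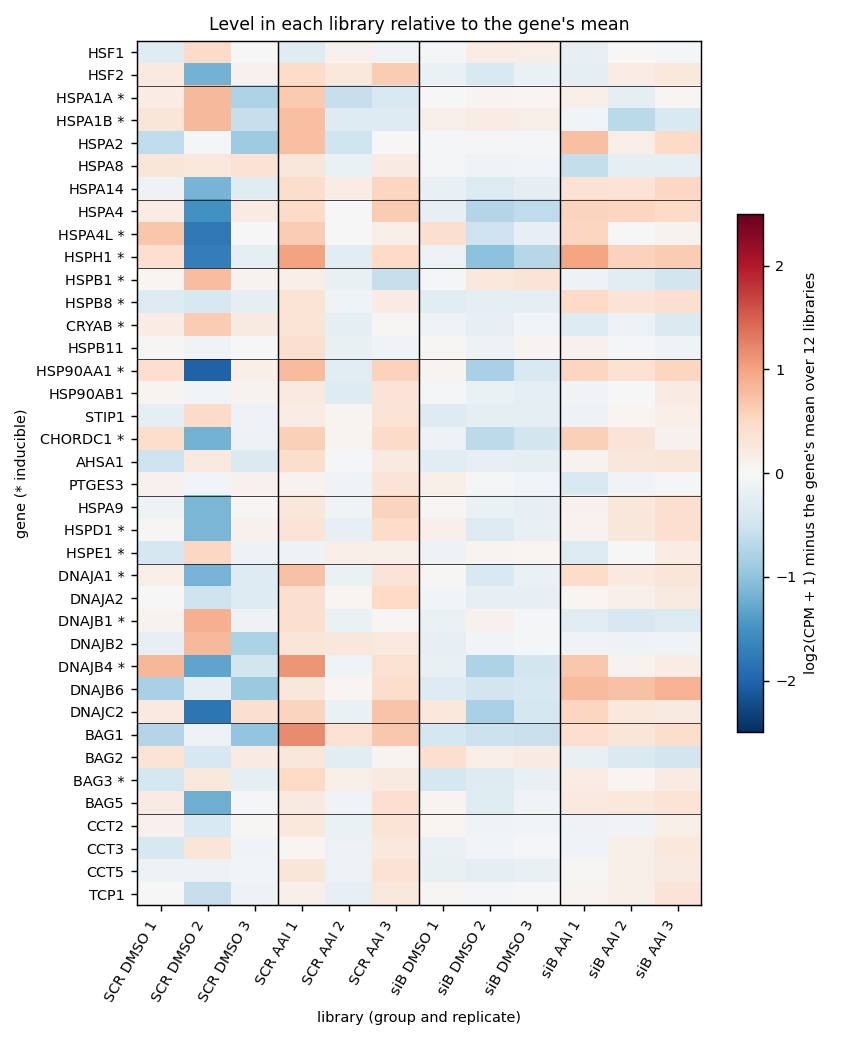
Level of the 38 genes (rows, grouped by role, inducible genes with an asterisk) in the 12 libraries (columns), as log2(CPM + 1) minus the gene's mean over all libraries, with red above and blue below the mean. In SCR DMSO replicate 2, HSP90AA1, HSPA4, HSPH1 and DNAJC2 are far below and HSPA1A, HSPB1 and DNAJB1 above their means, and DNAJB6 is high in all 3 siB AAI libraries.

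In SCR cells, AAI raised BAG1, a co-chaperone that releases nucleotide and client from HSP70, and no other member passed the test in either direction. BAG1 was at 15.5, 23.5 and 12.8 CPM in DMSO and 60.7, 34.4 and 42.5 CPM in AAI, without overlap (log2 change 1.37, SE 0.32, adjusted p = 0.0294, log2 change 1.60 without SCR DMSO replicate 2). The 38 changes had a median of 0.43 on the log2(CPM + 1) scale, against 0.18 over all 14228 genes tested, and 30 of them were positive. With 1 member raised and 0 lowered, the shares were below those of all genes tested, of which 8.98% were raised and 3.36% lowered, or 7.73% and 2.73% with a further limit of 2-fold. At an unadjusted p under 0.05 there were 4 members, all higher (BAG1, DNAJB6, HSPA14 and DNAJA2), against 17.9% of all genes higher and 9.1% lower, and with voom on recovered reads 1 member passed, higher. The groups did not overlap for 6 members, all higher in AAI, against 22.2% of all genes higher without overlap and 11.5% lower.

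These SCR values turned on the libraries and the fit. Same-numbered SCR libraries varied together, and with the replicate as a block 5 members passed, all higher: BAG1, DNAJA1, DNAJB6, HSPA14 and HSPH1, while 14.7% of all genes were then raised and 6.4% lowered. Without SCR DMSO replicate 2, 4 passed (BAG1, DNAJB6, AHSA1 and DNAJB2), against 13.5% of all genes raised and 8.7% lowered, and the median fell to 0.22 against 0.064 for all genes. The direction turned from negative to positive without it for HSF1, HSPA1A, HSPA1B and DNAJB1 and from positive to negative for HSPA4L. Without any 1 of the other SCR libraries, SCR DMSO replicates 1 and 3 and SCR AAI replicates 1, 2 and 3, 0 passed. Scaling by median-ratio size factors took the median of all genes from 0.18 to -0.0055 and that of the members to 0.23, with 0 members passing, and turned 1277 raised and 478 lowered genes into 1088 and 801.

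In siB cells, AAI raised 20 of the 38 genes and lowered 4. The raised genes were HSPA2, HSPA14, HSPA4, HSPH1, HSPB8, HSP90AA1, STIP1, CHORDC1, AHSA1, HSPA9, HSPD1, DNAJA1, DNAJA2, DNAJB4, DNAJB6, DNAJC2, BAG1, BAG3, BAG5 and CCT5, and the lowered ones HSPA1B, HSPB1, DNAJB1 and BAG2. Only HSPH1, DNAJB6 and HSPA4 exceeded 2-fold, and the median change was 0.32, against 0.096 over all 14928 genes tested. In the same fit 30.4% of all genes were raised and 21.8% lowered, or 13.9% and 5.79% with the 2-fold limit, so the members held a larger raised share and a smaller lowered share, and fewer of them were past 2-fold. Levels did not overlap between groups for 19 members higher and 5 lower in AAI, against 34.2% and 26.6% of all genes. All 24 kept their direction under every alternative that was run. Many calls were lost without siB DMSO replicate 2 (13 raised, 2 lowered), siB DMSO replicate 3 (12 and 2) or siB AAI replicate 3 (12 and 2). Of all 14928 genes, 3604, 3518 and 3884 were then raised. Fitting all 4 groups together left 6 and 1, with 3053 of all genes raised and 2088 lowered. The members' raised share was then below that of all genes, so the larger share depended on the fit. Replicates 2 and 3 of siB DMSO were more alike than any other replicate pair (chi-square per degree of freedom 4.23). The part of this likeness in the calls was not tested. Of the 14 alternatives, BAG1, BAG2, DNAJB6, HSPA4, HSPA14, HSPB8 and HSPH1 passed in all, HSPD1 and DNAJC2 in 7 and STIP1 in 4.

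Across the 2 backgrounds, which share no library, the 20 genes raised in siB cells all had a positive change in SCR cells, with and without SCR DMSO replicate 2. Among the 3896 genes raised in siB cells that were also tested in SCR cells, 96.8% had a positive change in SCR cells, or 88.4% without that library. The 4 lowered genes all had a negative change in SCR cells, of which 2 were negative without it, against 86% and 80.7% of the 3232 lowered genes tested in both. The difference between the backgrounds was tested by the interaction of siRNA and AAI, and 0 of 38 members passed in limma and 0 had an unadjusted p under 0.05. In that test 1.46% of 15325 genes had a higher and 0.157% a lower response in siB cells, or 6.75% and 6.51% at an unadjusted p under 0.05. With voom 0 of all genes passed, members included.

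**Figure D2:**
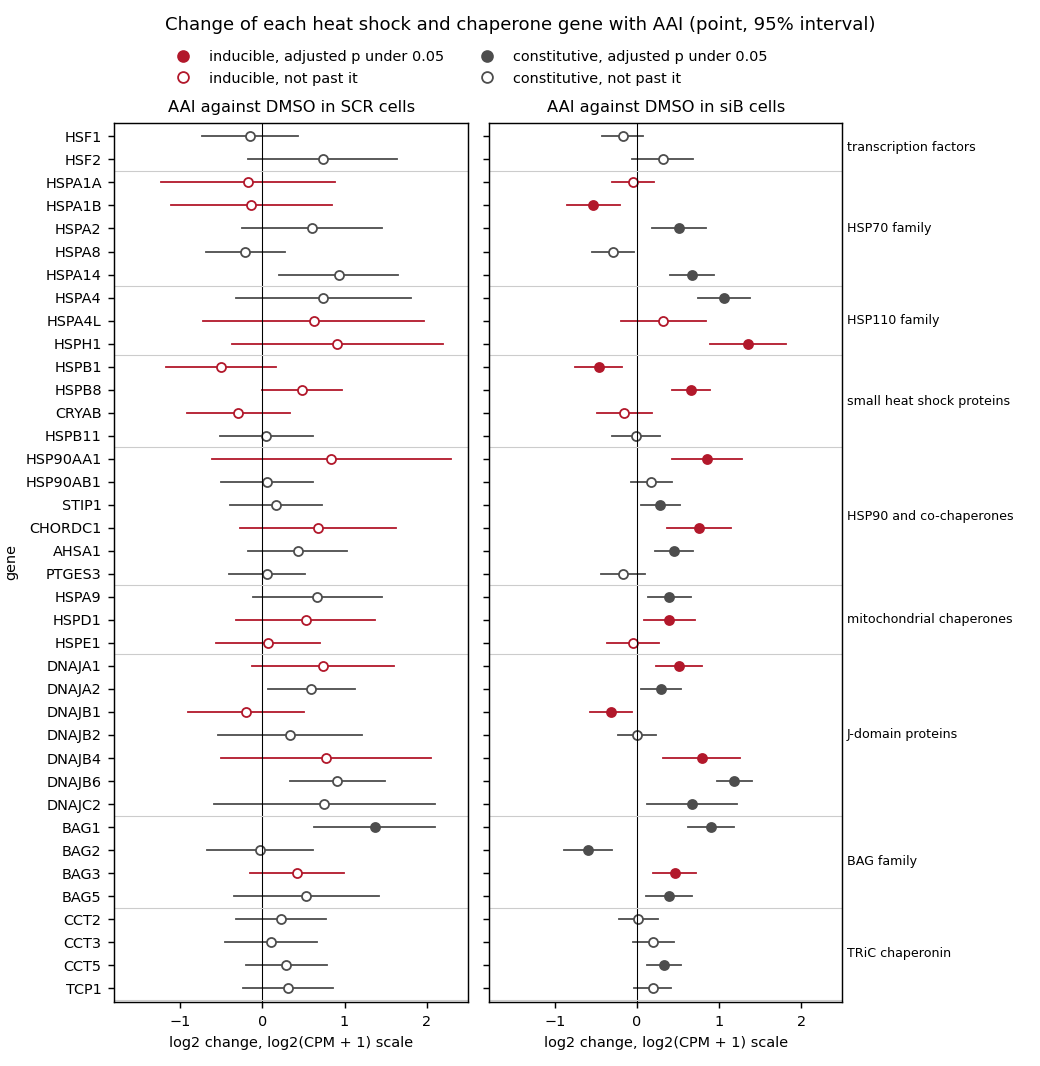
Change of each of the 38 genes with AAI in SCR cells (left) and siB cells (right), in log2 units on the log2(CPM + 1) scale, with 95% intervals, inducible genes in red and filled points at an adjusted p under 0.05. BAG1 is the only filled point on the left, where intervals are wide, and 24 points are filled on the right.

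HSF1 and HSF2 are heat shock transcription factors, HSF1 being the stress sensor and HSF2 a partner that can form mixed trimers with it. HSF1 was at 96.2, 166 and 118 CPM in SCR DMSO and 96.3, 127 and 112 CPM in SCR AAI. With knockdown HSF1 stood at 116, 136 and 133 CPM in DMSO and 103, 120.2 and 117 CPM in AAI. The groups overlapped in both backgrounds, and the log2 changes were -0.15 (95% interval -0.74 to 0.43, adjusted p = 0.734, log2 change 0.058 without SCR DMSO replicate 2) and -0.17 (95% interval -0.43 to 0.077, adjusted p = 0.216). HSF2 was at 30.0, 10.4 and 26.9 CPM in SCR DMSO and 34.8, 30.3 and 39.5 CPM in SCR AAI, and at 22.1, 18.9 and 22.1 and 21.1, 28.4 and 30.2 CPM in siB cells. Its AAI libraries lay above the DMSO libraries in SCR cells but not in siB cells, with log2 changes of 0.73 (95% interval -0.18 to 1.64, adjusted p = 0.28, log2 change 0.28 without SCR DMSO replicate 2) and 0.31 (95% interval -0.056 to 0.68, adjusted p = 0.137), so neither factor passed in either background. HSF1 activity is set largely by the protein's state, which RNA levels do not show.

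Among the HSP70 genes, the intronless HSPA1A as counted did not change detectably with AAI in either background, while HSPA1B as counted fell in siB cells. The split of reads between this near-identical pair is uncertain, and so are the readings of each gene alone. HSPA1A was at 379.6, 587 and 195 CPM in SCR DMSO and 525, 225 and 258 CPM in SCR AAI, a spread within each group larger than the difference between them (log2 change -0.17, 95% interval -1.23 to 0.89, adjusted p = 0.842, log2 change 0.20 without SCR DMSO replicate 2). In siB cells its levels were 333, 351 and 345 CPM in DMSO and 371, 284 and 344 CPM in AAI, which overlapped, and the log2 change was -0.051 (95% interval -0.31 to 0.21, adjusted p = 0.729). The upper bound lay well under 2-fold, so a rise of that size in HSPA1A as counted was not compatible with the spread of the siB libraries. HSPA1B was at 284, 407 and 153 CPM in SCR DMSO and 391, 185 and 185 CPM in SCR AAI, again overlapping (log2 change -0.13, 95% interval -1.11 to 0.84, adjusted p = 0.869, log2 change 0.19 without SCR DMSO replicate 2). In siB cells it went from 250.2, 264 and 257 CPM to 221, 144 and 176 CPM, all AAI libraries lying below all DMSO libraries (log2 change -0.53, SE 0.14, adjusted p = 0.0124).

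HSPA1A and HSPA1B encode nearly the same protein, and their ratio within a library, looked at after the values were seen, was similar in 3 of the groups. It was 1 of 3 such ratios, each compared in 4 ways. HSPA1B over HSPA1A was 0.743 ± 0.0465 (SD, n = 3) in SCR DMSO, 0.762 ± 0.0545 in SCR AAI and 0.749 ± 0.00426 in siB DMSO, but 0.538 ± 0.0492 in siB AAI. The 3 siB AAI ratios, 0.595, 0.507 and 0.512, lay below the other 9, which ran from 0.694 to 0.823. Against siB DMSO and against SCR AAI the exact 2-sided permutation test over libraries gave p = 0.1 each, the smallest that 3 against 3 libraries allow. How shared reads were counted for this near-identical pair is not stated, and its part in the ratio was not tested.

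**Figure D3:**
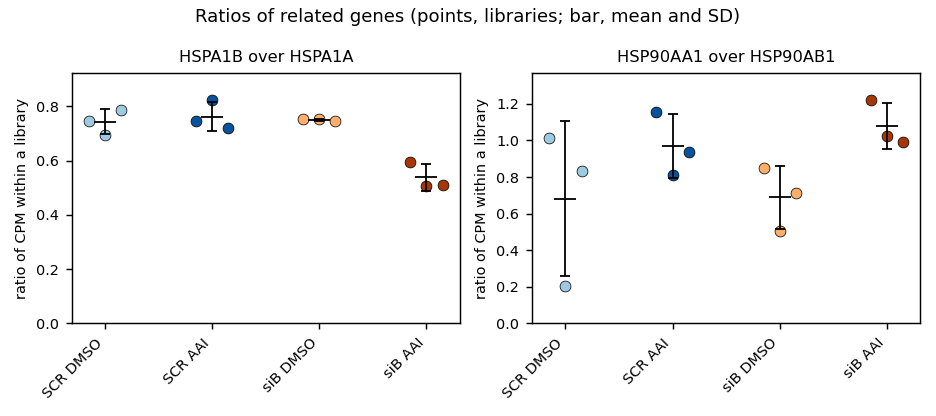
Ratio of CPM within each library for HSPA1B over HSPA1A (left) and HSP90AA1 over HSP90AB1 (right), with points for libraries and bars for the mean and SD of 3. The left ratio is 0.507 to 0.595 in siB AAI and 0.694 to 0.823 elsewhere, and the right ratio is lowest, at 0.202, in SCR DMSO replicate 2.

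HSPA8, the cognate HSC70 that folds nascent chains and uncoats clathrin vesicles, was at 976, 953 and 1019 CPM in SCR DMSO and 955, 708 and 909.8 CPM in SCR AAI, which overlapped (log2 change -0.21, 95% interval -0.69 to 0.27, adjusted p = 0.564, log2 change -0.23 without SCR DMSO replicate 2). It was at 761, 747 and 753 CPM in siB DMSO and 525, 668 and 668 CPM in siB AAI, below all siB DMSO libraries, and the log2 change of -0.29 (95% interval -0.55 to -0.033, adjusted p = 0.0573) did not pass. HSPA2, an intronless relative best known from the testis, was at 51.6, 51.9 and 50.6 CPM in siB DMSO and 89.1, 59.6 and 74.9 CPM in siB AAI (log2 change 0.51, SE 0.15, adjusted p = 0.016). In SCR cells it was at 33.6, 51.4 and 28.1 CPM in DMSO and 89.4, 37.2 and 52.6 CPM in AAI, which overlapped (log2 change 0.60, 95% interval -0.25 to 1.46, adjusted p = 0.338, log2 change 0.85 without SCR DMSO replicate 2). HSPA14, a ribosome-associated HSP70 relative with 13 introns, rose from 32.4, 28.9 and 31.4 CPM to 47.8, 47.4 and 53.6 CPM in siB cells (log2 change 0.67, SE 0.12, adjusted p = 0.00138). Its SCR levels were 33.7, 15.9 and 29.8 CPM in DMSO and 50.4, 42.6 and 54.5 CPM in AAI, without overlap but not past the test (log2 change 0.93, 95% interval 0.20 to 1.65, adjusted p = 0.101, log2 change 0.61 without SCR DMSO replicate 2, and adjusted p = 0.0272 with the replicate block).

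The HSP110 genes encode exchange factors that recharge HSP70 with ATP and work with it in taking apart aggregates, and they included the member that rose most in siB cells. HSPH1 (chr13:31134973-31162388, minus strand), the heat-inducible form with 17 introns, went from 122, 66.2 and 82.3 CPM in siB DMSO to 267, 202 and 209 CPM in siB AAI (log2 change 1.35, SE 0.20, adjusted p = 0.00054). Every AAI library exceeded every DMSO library there. In SCR cells it was at 181, 40.1 and 116 CPM in DMSO and 272, 110.2 and 192 CPM in AAI, with overlap (log2 change 0.91, 95% interval -0.36 to 2.19, adjusted p = 0.335, log2 change 0.31 without SCR DMSO replicate 2, and adjusted p = 0.0249 with the replicate block). HSPA4 rose from 113, 78.1 and 84.0 CPM to 193, 189.7 and 187 CPM in siB cells (log2 change 1.06, SE 0.14, adjusted p = 0.000243). In SCR cells it stood at 150.1, 45.3 and 152 CPM in DMSO and 182, 133 and 204 CPM in AAI, where the groups overlapped and SCR DMSO replicate 2 was the lowest library (log2 change 0.74, 95% interval -0.32 to 1.81, adjusted p = 0.345, log2 change 0.17 without SCR DMSO replicate 2). HSPA4L, the third form, was at 48.3, 25.3 and 31.6 CPM in siB DMSO and 53.3, 36.9 and 39.2 CPM in siB AAI, and at 60.2, 9.84 and 36.8 CPM in SCR DMSO and 57.6, 36.3 and 40.9 CPM in SCR AAI. The groups overlapped in both backgrounds, and it did not pass in either (log2 change 0.62, 95% interval -0.72 to 1.97, adjusted p = 0.533, log2 change -0.093 without SCR DMSO replicate 2, and in siB cells log2 change 0.32, 95% interval -0.19 to 0.84, adjusted p = 0.262).

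Small heat shock proteins hold unfolded clients without ATP, and of the 3 inducible members HSPB1 was lowered and HSPB8 raised in siB cells, while CRYAB did not pass. HSPB1, the most abundant of the 38 genes per kilobase, fell in siB cells from 650.2, 793 and 829 CPM to 610.4, 549.5 and 482 CPM, without overlap (log2 change -0.47, SE 0.13, adjusted p = 0.0125). In SCR cells HSPB1 was at 682, 1132 and 701 CPM in DMSO and 741, 582 and 442 CPM in AAI, which overlapped (log2 change -0.50, 95% interval -1.17 to 0.17, adjusted p = 0.316, log2 change -0.26 without SCR DMSO replicate 2). HSPB8, which pairs with BAG3 to pass clients to autophagy, rose in siB cells from 53.8, 56.0 and 55.7 CPM to 92.4, 82.4 and 87.3 CPM (log2 change 0.65, SE 0.10, adjusted p = 0.000697). The SCR libraries of HSPB8 did not overlap either, at 51.7, 49.1 and 55.4 CPM in DMSO and 83.6, 61.9 and 75.1 CPM in AAI, but it did not pass there (log2 change 0.48, 95% interval -0.0069 to 0.97, adjusted p = 0.191, log2 change 0.44 without SCR DMSO replicate 2). CRYAB, alpha B crystallin, was low at 15.5, 21.4 and 15.9 CPM in SCR DMSO and 17.3, 11.5 and 13.9 CPM in SCR AAI, and at 12.7, 11.5 and 12.9 and 10.6, 12.1 and 10.3 CPM in siB DMSO and siB AAI. Its groups overlapped with AAI in both backgrounds (log2 change -0.29, 95% interval -0.92 to 0.33, adjusted p = 0.531, log2 change -0.15 without SCR DMSO replicate 2, and in siB cells log2 change -0.16, 95% interval -0.49 to 0.18, adjusted p = 0.403). HSPB11, now named IFT25 and known as a part of the ciliary transport complex, stayed between 26.5 and 40.6 CPM in all libraries and did not pass.

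HSP90 completes the folding of kinases and steroid receptors. Of its 2 cytosolic isoforms the inducible HSP90AA1 rose in siB cells, from 1074, 584 and 788 CPM to 1486, 1320.2 and 1473 CPM (log2 change 0.85, SE 0.19, adjusted p = 0.00454). In SCR cells HSP90AA1 was at 1367, 249.5 and 1144 CPM in DMSO and 1772, 833 and 1525 CPM in AAI (log2 change 0.84, 95% interval -0.61 to 2.29, adjusted p = 0.432, log2 change 0.067 without SCR DMSO replicate 2). The low DMSO value is that of SCR DMSO replicate 2. The constitutive HSP90AB1 had a log2 change of 0.18 (95% interval -0.070 to 0.42, adjusted p = 0.203) in siB cells and did not pass. HSP90AA1 over HSP90AB1 was 0.849, 0.506 and 0.713 in siB DMSO and 1.22, 1.02 and 0.994 in siB AAI, so all 3 AAI ratios lay above all 3 DMSO ratios (exact 2-sided permutation p = 0.1, the smallest possible).

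Of the HSP90 co-chaperones, CHORDC1, a stress-responsive partner with CHORD domains, rose in siB cells from 30.0, 21.0 and 24.0 CPM to 50.7, 41.8 and 35.9 CPM (log2 change 0.75, SE 0.17, adjusted p = 0.0053). Its SCR libraries, at 45.7, 14.2 and 30.0 CPM in DMSO and 51.1, 35.0 and 47.1 CPM in AAI, overlapped (log2 change 0.68, 95% interval -0.27 to 1.63, adjusted p = 0.333, log2 change 0.24 without SCR DMSO replicate 2). AHSA1, which stimulates the ATPase of HSP90, and STIP1, which links HSP70 to HSP90, rose in siB cells by less, with log2 changes of 0.45 and 0.28 (adjusted p = 0.00492 and 0.0462). The STIP1 change was 0.17 with median-ratio size factors and did not pass (adjusted p = 0.295). PTGES3, the p23 co-chaperone, changed by -0.17 (95% interval -0.44 to 0.094, adjusted p = 0.245) and did not pass. In SCR cells the 6 genes of this role had log2 changes between 0.055 and 0.84, and 0 passed, while without SCR DMSO replicate 2 AHSA1 did (0.66, adjusted p = 0.0492).

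The mitochondrial pair HSPD1 and HSPE1, the HSP60 chaperonin and its HSP10 lid, start head to head, and HSPD1 was raised in siB cells while HSPE1 did not pass in either background. HSPD1 was at 701, 506 and 564 CPM in siB DMSO and 679.9, 781 and 859 CPM in siB AAI, where the lowest AAI library lay below the highest DMSO library (log2 change 0.40, SE 0.14, adjusted p = 0.0378). HSPE1 was at 102, 116 and 115 CPM in siB DMSO and 87.8, 110.4 and 127 CPM in siB AAI, an overlap, with a log2 change of -0.051 (95% interval -0.37 to 0.27, adjusted p = 0.779). In SCR cells HSPD1 stood at 648, 291 and 687 CPM in DMSO and 793, 555 and 881 CPM in AAI, and HSPE1 at 83.0, 159.8 and 101 and 102, 125 and 123 CPM. SCR DMSO replicate 2 was the lowest library for HSPD1 and the highest for HSPE1, and neither gene passed (log2 change 0.53, 95% interval -0.31 to 1.37, adjusted p = 0.397, log2 change 0.13 without SCR DMSO replicate 2, and for HSPE1 log2 change 0.072, 95% interval -0.56 to 0.71, adjusted p = 0.894, log2 change 0.34 without SCR DMSO replicate 2). For the ratio of HSPE1 to HSPD1, AAI against DMSO gave an exact 2-sided permutation p of 0.2 in siB cells and 0.7 in SCR cells. HSPA9, the mitochondrial HSP70 mortalin that pulls proteins through the inner membrane, rose in siB cells by 0.39 (adjusted p = 0.0185).

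J-domain proteins deliver clients to HSP70 and start its ATP hydrolysis. In siB cells 5 of the 7 were raised and 1 lowered, against 30.4% and 21.8% of all genes. DNAJB6 (chr7:157335381-157417439, plus strand), which suppresses amyloid aggregation and has 9 introns over 82.06 kb, had the lowest adjusted p of all members. DNAJB6 was at 110.2, 99.6 and 104 CPM in siB DMSO and 239.6, 228 and 251 CPM in siB AAI, so each AAI library was above each DMSO library (log2 change 1.19, SE 0.097, adjusted p = 1.57e-05). Its SCR libraries did not overlap either, at 78.4, 118 and 71.5 CPM in DMSO and 167, 143 and 188 CPM in AAI (log2 change 0.91, 95% interval 0.33 to 1.49, adjusted p = 0.0524, log2 change 1.13 without SCR DMSO replicate 2, and adjusted p = 0.0348 with the replicate block). DNAJB1, the classic inducible HSP40 with 2 introns, went the other way in siB cells, from 83.0, 101 and 91.4 CPM to 77.1, 70.0 and 72.9 CPM (log2 change -0.32, SE 0.11, adjusted p = 0.0389). In SCR cells DNAJB1 was at 99.1, 174 and 85.7 CPM in DMSO and 123, 83.2 and 95.4 CPM in AAI, which overlapped (log2 change -0.20, 95% interval -0.90 to 0.51, adjusted p = 0.711, log2 change 0.10 without SCR DMSO replicate 2).

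DNAJB4, also with 2 introns, rose in siB cells from 15.6, 10.0 and 12.8 CPM to 29.1, 19.0 and 20.5 CPM (log2 change 0.79, SE 0.21, adjusted p = 0.0105), while its SCR levels of 32.6, 6.59 and 12.6 CPM in DMSO and 39.6, 16.4 and 23.6 CPM in AAI overlapped (log2 change 0.78, 95% interval -0.50 to 2.06, adjusted p = 0.411, log2 change 0.28 without SCR DMSO replicate 2). DNAJA1, a farnesylated partner of HSP70, rose from 142, 107 and 124 CPM to 192, 165 and 173 CPM in siB cells (log2 change 0.51, SE 0.13, adjusted p = 0.00728). For DNAJA1 in SCR cells, levels were 156, 61.8 and 112 CPM in DMSO and 233, 125 and 175 CPM in AAI (log2 change 0.74, 95% interval -0.12 to 1.60, adjusted p = 0.251, log2 change 0.38 without SCR DMSO replicate 2, and adjusted p = 0.0293 with the replicate block). DNAJC2, a ribosome-bound partner of HSPA14, was at 26.6, 12.2 and 16.1 CPM in siB DMSO and 32.4, 26.8 and 26.0 CPM in siB AAI, where replicate 1 in DMSO lay above the lowest AAI library (log2 change 0.67, SE 0.25, adjusted p = 0.0432). In SCR cells it was at 26.4, 5.54 and 29.2 and 32.7, 19.4 and 36.8 CPM, with the lowest value in SCR DMSO replicate 2 (log2 change 0.76, 95% interval -0.59 to 2.10, adjusted p = 0.448, log2 change 0.044 without SCR DMSO replicate 2). DNAJA2 rose by 0.29 in siB cells (adjusted p = 0.0422), and DNAJB2 changed there by -0.0024 (95% interval -0.24 to 0.23, adjusted p = 0.987) and did not pass.

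**Figure D4:**
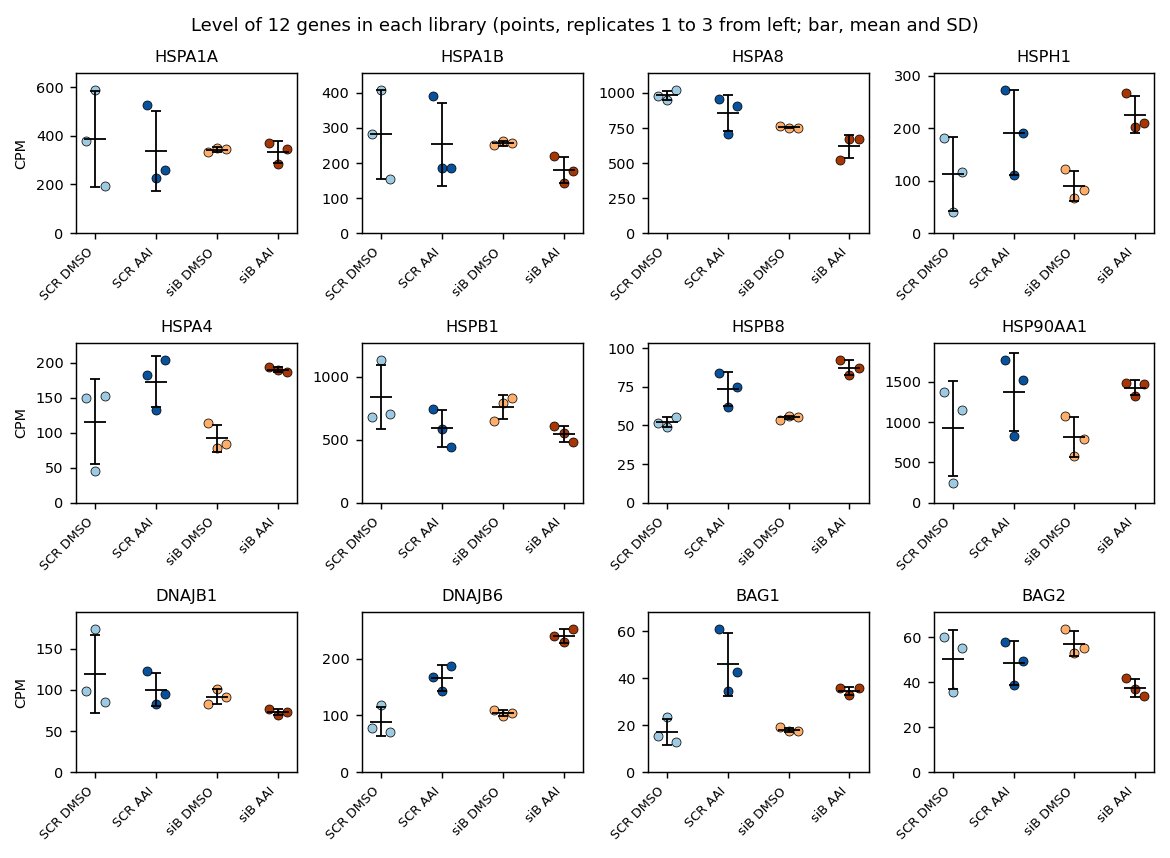
CPM of 12 genes in each library, on axes that start at 0, with points for replicates 1, 2 and 3 from left to right and bars for the mean and SD of 3 libraries. In siB AAI, HSPH1, HSPA4, HSPB8, HSP90AA1, DNAJB6 and BAG1 lie above siB DMSO and HSPA1B, HSPB1, DNAJB1 and BAG2 below it, while SCR DMSO points are widely spread for HSPA1A, HSPB1 and HSP90AA1.

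The BAG proteins are nucleotide exchange factors that steer HSP70 clients. All 4 passed in siB cells, 3 raised and BAG2 lowered, where 30.4% of all genes were raised and 21.8% lowered. BAG1, the only member past the test in both backgrounds, rose in siB cells from 19.1, 17.7 and 17.6 CPM to 35.7, 32.6 and 35.7 CPM (log2 change 0.90, SE 0.12, adjusted p = 0.000328). BAG3, inducible and the scaffold of the HSPB8 pathway, rose from 51.9, 57.0 and 62.8 CPM to 80.9, 73.7 and 82.2 CPM (log2 change 0.46, SE 0.12, adjusted p = 0.00835). Levels of BAG3 in SCR cells were 52.5, 85.6 and 61.0 CPM in DMSO and 101, 79.3 and 83.5 CPM in AAI, and SCR DMSO replicate 2 exceeded all but the highest AAI library (log2 change 0.42, 95% interval -0.15 to 0.99, adjusted p = 0.317, log2 change 0.62 without SCR DMSO replicate 2). BAG2, which restrains the ubiquitin ligase CHIP, fell in siB cells from 63.6, 53.0 and 55.1 CPM to 41.8, 36.8 and 34.0 CPM (log2 change -0.60, SE 0.13, adjusted p = 0.00387). In SCR cells BAG2 was at 60.2, 35.5 and 55.1 CPM in DMSO and 58.1, 38.6 and 49.6 CPM in AAI, with overlap (log2 change -0.027, 95% interval -0.67 to 0.62, adjusted p = 0.964, log2 change -0.25 without SCR DMSO replicate 2). BAG5 rose by 0.39 in siB cells (adjusted p = 0.024).

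TRiC is the ring-shaped chaperonin that folds actin and tubulin. Its 4 chosen subunits moved little, with log2 changes of 0.016 to 0.33 in siB cells and 0.11 to 0.31 in SCR cells, or 0.075 to 0.29 without SCR DMSO replicate 2. Only CCT5 passed, in siB cells (log2 change 0.33, SE 0.094, adjusted p = 0.0151), where it went from 352, 339 and 352 CPM to 407, 439 and 466 CPM without overlap. Of the other 4 TRiC genes, 2 were raised in siB cells, CCT8 (0.63) and CCT6A (0.43), against 30.4% of all genes.

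Set against each other, the inducible and constitutive genes had similar medians. Within the inducible genes, those with few introns had a lower median than those with more in siB cells. In that fit 30.4% of all genes were raised and 21.8% lowered. The 15 inducible genes had a median change of 0.40 (8 raised, 3 lowered) and the 23 constitutive genes one of 0.29 (12 raised, 1 lowered), beside 0.096 for all genes. The 9 inducible genes with at most 3 introns had a median of -0.051, with HSPB8, DNAJB4 and BAG3 raised and HSPA1B, HSPB1 and DNAJB1 lowered. These shares, 3 raised and 3 lowered of 9, were not far from those of all genes. The 6 with more introns had a median of 0.63, and all but HSPA4L were raised. In SCR cells the same medians were -0.13 and 0.71, with 0 genes of either kind past the test and 0 at an unadjusted p under 0.05. With the replicate as a block in limma, HSPH1 and DNAJA1, both with more introns, passed (adjusted p = 0.0249 and 0.0293), when 14.7% of all genes were raised and 6.4% lowered. Without SCR DMSO replicate 2 the medians were 0.20 and 0.18, so the split in SCR cells was not seen without that library. Of all 12 members with at most 3 introns, which adds HSPA2, BAG2 and BAG5, 5 were raised and 4 lowered in siB cells, against 15 raised and 0 lowered among the 26 with more. These are descriptions of chosen genes, and the difference between the classes was not tested.

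Base composition moved with the same split. Transcript GC content had a median of 52.8% (32.7% to 65.3%) for the inducible genes with few introns, 40.2% (34.3% to 41.7%) for those with more and 44.1% (37.0% to 63.9%) for the constitutive genes. Across the 38 genes, the level in SCR DMSO replicate 2 minus the mean of replicates 1 and 3 went with GC content, with a Spearman correlation of 0.788, as it did over 10949 genes with a mean of at least 5 CPM (0.772). The change with AAI in SCR cells had a correlation of -0.498 with GC over the members and of 0.156 without SCR DMSO replicate 2, against -0.172 and 0.212 over all genes. In siB cells, which do not include that library, the correlation was -0.319 over the members and -0.283 over all genes. Deviations of siB DMSO libraries from their group mean correlated with those of same-numbered SCR DMSO libraries at 0.738, 0.607 and -0.199 for replicates 1, 2 and 3. Leaving SCR DMSO replicate 2 out of a comparison therefore does not show that the siB libraries were free of its pattern. The points share libraries, and the part of base composition in the changes was not tested.

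**Figure D5:**
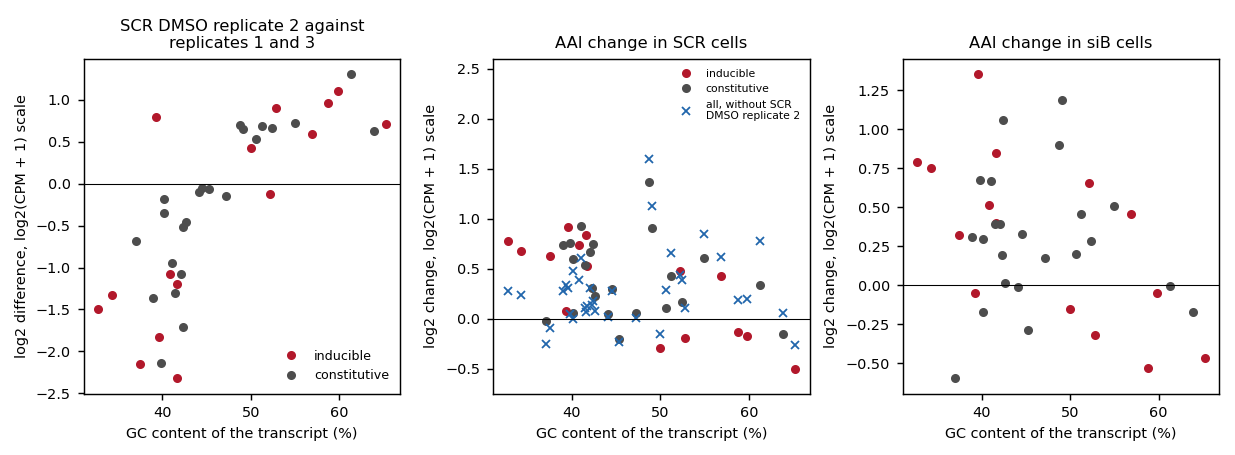
GC content of the transcript (x axis, percent) of the 38 genes against the log2 level in SCR DMSO replicate 2 relative to replicates 1 and 3 (left), the AAI change in SCR cells (middle, crosses without SCR DMSO replicate 2) and the AAI change in siB cells (right). The left panel runs from -2.32 for HSP90AA1 to 1.31 for DNAJB2 and goes up with GC content, and the slope of the middle panel is not kept by the crosses.

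Comparing siB with SCR cells under AAI asks whether knockdown altered the chaperone genes of injured cells. DNAJB6 was higher in siB cells, at 239.6, 228 and 251 CPM against 167, 143 and 188 CPM without overlap (log2 difference 0.54, SE 0.16, adjusted p = 0.0488), and no other member passed. That call was lost with a pseudocount of 0.1, with no filter, with a mean CPM of at least 5, with all 4 groups in the fit, with voom, and when any 1 library other than SCR AAI replicate 1 was left out. The median difference was -0.048, against 0.0023 over all 14946 genes, of which 5.49% were higher and 3.79% lower. At an unadjusted p under 0.05 there were 4 members, 1 higher, against 13.3% of all genes higher and 12.2% lower. Levels did not overlap for 5 members, DNAJB6 higher and HSF2, HSPA8, DNAJB1 and DNAJB2 lower in siB, against 15.1% and 15.8% of all genes. Same-numbered libraries varied together here too, and with the replicate as a block DNAJB6 and HSPA2 were higher and HSF2, HSPA1B, HSPA8, DNAJB1 and DNAJB2 lower. The replicate block gave adjusted p = 0.0015 for DNAJB6, 0.0373 for HSPA2, 0.0487 for HSF2, 0.017 for HSPA1B and 0.0387 for DNAJB2, and under it 15.2% of all genes were higher and 13.8% lower, so the members held no larger share than all genes.

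HSPA8 had the largest drop among the members, from 955, 708 and 909.8 CPM in SCR AAI to 525, 668 and 668 CPM in siB AAI (log2 difference -0.46, 95% interval -0.85 to -0.079, adjusted p = 0.121, and adjusted p = 0.00659 with the replicate block). For DNAJB1 the values were 123, 83.2 and 95.4 CPM in SCR AAI and 77.1, 70.0 and 72.9 CPM in siB AAI (log2 difference -0.43, 95% interval -0.81 to -0.058, adjusted p = 0.136, and adjusted p = 0.0164 with the replicate block). HSPA1A differed by 0.084 (95% interval -0.49 to 0.66, adjusted p = 0.877) and HSPH1 by 0.32 (95% interval -0.25 to 0.90, adjusted p = 0.477), intervals that leave room for changes in either direction. Without SCR AAI replicate 1, the library in which HSPA2 and HSPH1 were highest among SCR AAI libraries, 3 members passed, DNAJB6, HSPA2 (0.72) and HSPH1 (0.62), all higher in siB. Of all 14946 genes, 1306 were then higher and 798 lower, so the members held no larger share than all genes.

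In DMSO, siB and SCR cells did not differ detectably in any member. By limma 0 of 38 genes passed and by voom 0, and over all 13606 genes the shares raised and lowered were 0% and 0%, with 3.52% higher and 1.21% lower at an unadjusted p under 0.05. POLR2A, the target of siB, thus did not pass either, although its levels did not overlap (258 to 306 CPM in SCR DMSO, 138 to 143 in siB DMSO). The comparison missed this known difference, so it says little about whether the members differed. At an unadjusted p under 0.05 there was 1 member, HSPA8, with 976, 953 and 1019 CPM in SCR DMSO and 761, 747 and 753 CPM in siB DMSO and no overlap (log2 difference -0.38, 95% interval -0.68 to -0.085, adjusted p = 1, log2 difference -0.40 without SCR DMSO replicate 2). HSPA8 was thus the member whose siB libraries lay below the SCR libraries in both media. Levels also did not overlap for CRYAB and CCT5, lower in siB DMSO, which makes 3 members lower and 0 higher, against 3.64% and 8.28% of all genes. The median of the 38 differences was 0.0090, beside 0.061 for all genes. Without SCR DMSO replicate 2, limma gave 1563 of all 13606 genes higher and 1191 lower at an unadjusted p under 0.05, and 0 passed.

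A further 52 chaperone genes from the same pathway were read alongside. In siB cells 45 were tested, with 14 raised and 6 lowered and a median change of 0.14. Of all genes 30.4% were raised and 21.8% lowered there, so the raised share was near that of all genes and the lowered share smaller. In SCR cells 46 were tested, with 3 raised (HSPB6, HSPB9 and DNAJA4) and 0 lowered and a median of 0.30. Both shares were below those of all genes in SCR cells, 8.98% raised and 3.36% lowered. Rises past 2-fold were in weakly expressed genes. HSPB9, a small heat shock protein known from the testis, went from 0.342, 0.721 and 0.112 CPM to 5.30, 3.74 and 5.63 CPM in siB cells and from 0.462, 0.117 and 0 CPM to 3.31, 3.85 and 4.38 CPM in SCR cells (log2 changes 2.09 and 2.04, adjusted p = 6.54e-05 and 0.000815). DNAJA4, a J-domain protein, went from 0.385, 0.496 and 0.335 CPM to 4.61, 4.11 and 4.02 CPM in siB cells and from 0.323, 0.327 and 0.184 CPM to 2.43, 1.77 and 2.11 CPM in SCR cells (log2 changes 1.90 and 1.28, adjusted p = 2.1e-05 and 0.0028). HSPB6 rose in siB cells from 0.128, 0.225 and 0 CPM to 2.97, 1.94 and 2.84 CPM (log2 change 1.67, SE 0.19, adjusted p = 9.54e-05). CLPB, a mitochondrial disaggregase, fell in siB cells from 17.7, 22.4 and 17.0 CPM to 4.80, 11.8 and 10.4 CPM (log2 change -1.07, SE 0.28, adjusted p = 0.00999). The DMSO levels of HSPB9, HSPB6 and DNAJA4 were close to the value of a few reads, so fold changes on the log2(CPM + 1) scale understate their change. HSPB9, HSPB6, DNAJA4 and CLPB each overlap annotated genes on the opposite strand, such as SKIC8 for DNAJA4. With use of strand not stated, reads cannot be told apart there. Between siB and SCR cells under AAI, DNAJA4 was higher (log2 difference 0.76, SE 0.21, adjusted p = 0.0371) and DNAJB12 (log2 difference -0.75, SE 0.17, adjusted p = 0.0185) and STUB1 (log2 difference -0.65, SE 0.16, adjusted p = 0.0279), the ubiquitin ligase CHIP, were lower. In that comparison 47 were tested, and 5.49% of all genes were higher and 3.79% lower. In DMSO 0 of 42 passed, with 1 at an unadjusted p under 0.05 (PFDN1), against 3.52% of all genes higher and 1.21% lower.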

How the data were processed

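Poly(A) RNA of 12 HK-2 libraries was sequenced. Per the study's methods, the authors processed paired-end reads with BioJupies and a UCSC hg38 annotation, with aligner and use of strand not given in the sources used here, and deposited log10 values, log10(CPM + 1) per gene. These values were turned back into CPM. In every library 100% of low values were whole multiples of 1 read (tolerance 0.1 read), which gave recovered reads. Titles gave the groups, since another label field lists DMSO as treatment of all samples. Replicates were compared by a chi-square of their recovered reads, with no limit set for calling a copy. Per degree of freedom it was 4.23 for siB DMSO replicates 2 and 3 and 26.17 to 358.4 for the other pairs. Whether those 2 libraries came from separate cultures is not stated, and the siB p-values rest in part on their small spread. Recovered depth was 15844015 to 42805294 reads, and limits cover counting error only.

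Each pair of groups was fitted alone with limma 3.58.1 (lmFit, eBayes with a trend, R 4.3.3) on log2(CPM + 1), for genes with at least 1 CPM in at least 3 libraries, with Benjamini-Hochberg adjustment over all genes tested. The interaction used all 12 libraries. Intervals are limma's 95% intervals. Differences of ratios were tested by exact 2-sided permutation in scipy 1.17.1. Alternatives were voom on recovered reads, scaling by median-ratio size factors, leaving AC010970.2 (0.189% to 10.6% of reads) out of CPM, fitting all 4 groups together, blocking by replicate, a pseudocount of 0.1 CPM, a limit of 2-fold, dropping the filter, a filter at a mean CPM of 5, and leaving out each library.

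Pairing was checked by correlating deviations of same-numbered libraries from group means over 14465 genes. All correlations exceeded 0.1 for AAI against DMSO in SCR cells (0.355 to 0.487) and for siB against SCR under AAI (0.301 to 0.635), so blocked values are printed there where the call changes. They did not in siB cells (lowest 0.0251) or in DMSO (lowest -0.199). The numbers come from the titles.

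Gene structure and GC content came from GENCODE release 44, matched by symbol. Members and lists were chosen with earlier results of these data known. Values in every library are given for inducible members, HSF1, HSF2, HSPA2, HSPA8 and members past the test with a change of at least 1.5-fold, and other chaperone genes are valued past 2-fold. Values of CCT5, CCT6A, CCT8, DNAJB12, STUB1 and PFDN1 and ratios of gene pairs were added after values were seen.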

Additional observations from a re-analysis of the deposited data

How the results depend on the processing

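Directions of the 24 members that passed in siB cells were the same under every alternative, and so was that of BAG1 in SCR cells, while HSF1, HSPA1A, HSPA1B, HSPA4L and DNAJB1, which did not pass there, changed sign without SCR DMSO replicate 2. In SCR cells the number raised, 1 in the analysis reported, was 0 with median-ratio size factors, 2 with CPM without AC010970.2, 5 with all 4 groups in the fit and 5 with the replicate block. Of all genes, 1277 of 14228 were raised in the analysis reported. They were 1088 with median-ratio size factors, 1420 of 14308 without AC010970.2, 2500 with all 4 groups and 2086 with the block. The members' raised share was below that of all genes in each. The number of members raised ran from 0 to 4 with a library left out. In siB cells the 20 raised and 4 lowered became 6 and 1 with all 4 groups in the fit, 3 and 0 with a 2-fold limit, and 12 to 21 raised and 2 to 4 lowered with a library left out. With all 4 groups in the fit, the 4535 raised and 3259 lowered of all genes became 3053 and 2088. The members' raised share was then below that of all genes. Median-ratio size factors left 14 members raised and 5 lowered in siB cells, against 4016 and 4024 of all genes. They took the members' median there from 0.318 to 0.207. The replicate block, for numbers that did not pair the siB samples, gave 21 members raised and 4 lowered, against 5072 and 3528 of all genes. For siB against SCR under AAI, the 1 member raised became 0 with a pseudocount of 0.1 CPM, with no filter, with a mean CPM of at least 5, with all 4 groups in the fit, with voom and with a 2-fold limit. With the replicate block 2 were raised and 5 lowered, and with a library left out 0 to 3 were raised. In DMSO and for the interaction the count was 0 under every alternative, the replicate block included. The causes of these differences were not tested, except that the 2-fold limit asks for more. With 3 libraries per group the interval of HSP90AA1 ran from -0.61 to 2.29 for AAI in SCR cells and from -1.43 to 1.65 for siB against SCR in DMSO.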
